A study of Mus musculus with 4 samples.

Results

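The ribosomal protein genes of the mouse kidney in glomerulonephritis are described here, across cell types and drug treatments. The set was chosen by gene symbol alone: Rpl or Rps followed by digits and at most a single further letter, together with Rplp0, Rplp1, Rplp2 and Rpsa. Symbols ending in -ps, which mark copies of these genes, and the Rps6k kinases were left out. This gave 79 of the 16706 genes of the expression matrix. The study measured gene expression in single cells of total kidney by droplet-based 3′ RNA sequencing with unique molecular identifiers (UMIs), which count captured RNA molecules rather than reads. All animals were male C57Bl/6 mice aged 9 weeks that carried Pax2.rtTA, TetO.Cre and R26.Confetti, a doxycycline-driven recombination system with a multicolour reporter under the Pax2 promoter. All were injected with anti-GBM serum, antibodies to the membrane of the glomerulus that cause crescentic glomerulonephritis, so there was no healthy group. The vehicle group received distilled water, and the drug groups received the histone deacetylase inhibitor panobinostat at 15 mg/kg, the histone deacetylase inhibitor givinostat at 10 mg/kg or the Janus kinase inhibitor ruxolitinib at 60 mg/kg, from day 1 until the animals were killed on day 7. The labels name 2 animals per group and do not say whether their cells were pooled.

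Each group had 1 library, so treatment and library cannot be told apart, and no difference between groups could be tested. The intervals given below are 95% intervals for counting error only and do not include differences between animals or between library preparations. The vehicle library was matched to its column suffix by elimination, since the other 3 suffixes name a drug.

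Ribosomal proteins, together with the ribosomal RNAs, form the small subunit, which reads the mRNA, and the large subunit, which joins the amino acids. Their mRNAs are among the most abundant of any cell, and most of them begin with a C followed by a run of pyrimidines, the 5′ terminal oligopyrimidine (TOP) motif, through which mTORC1 and LARP1 control their translation. Lymphocytes are known for a high share of these mRNAs among their transcripts, while the proximal tubule devotes much of its RNA to transport and metabolism.

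The sequence around the transcription start is shown for some of the members on which the later comparisons turn. Each line gives 10 bases before to 20 bases after the annotated start, on the gene's own strand, from RefSeq on GRCm38.p6. Capitals mark a C followed by at least 4 pyrimidines that begins within 5 bases of the start. Every start shown has such a run, which is not so for the members as a whole. Members named below that had none at their annotated starts included Rps28, Rpl10, Rpl41, Rplp0, Rpl13, Rpl23, Rpl27, Rpl37 and Rpl37a. They also included Rpl36a, Rps12, Rps3, Rps4x, Rpl3l and Rpl39l. A further annotated start of Rps21 and of Rps27l, not shown, had none either. The first 3 belong to short mRNAs that were higher in the givinostat library and lower in the ruxolitinib library than in vehicle. Rpl28 and Rpl18 were lower with givinostat. Rps27l, Rpl12 and Rps2 differed most between cell types.
Rpl38, chr11:114668570-114668599 (+): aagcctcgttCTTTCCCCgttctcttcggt
Rps27, chr3:90213629-90213658 (-): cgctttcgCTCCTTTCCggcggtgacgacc
Rps21, chr2:180257369-180257398 (+): aggacccgCCCTCCTgcccaatagtgctgc
Rpl28, chr7:4792955-4792984 (+): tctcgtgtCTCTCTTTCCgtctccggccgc
Rpl18, chr7:45718061-45718090 (+): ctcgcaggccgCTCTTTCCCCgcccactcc
Rps27l, chr9:66946076-66946105 (+): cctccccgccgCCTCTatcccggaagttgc
Rpl12, chr2:32961702-32961731 (+): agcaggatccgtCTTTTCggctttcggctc
Rps2, chr17:24720053-24720082 (+): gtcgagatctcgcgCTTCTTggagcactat
Rpl38 and Rpl28, on opposite sides of vehicle with givinostat and both below it with ruxolitinib, both carried such a run. The motif, C followed by at least 4 letters that are C or T, was searched on the gene's strand only. It began within 5 bases of a start in 28 of the 59 members with an entry (47.5%), against 21.2% of all 27023 symbols of the promoter table. At the start base itself it was found in 13 of the 59 members, against 812 of the 27023 symbols. The annotated starts are not measured start sites, and a match is a description of these letters only.

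After 226 barcodes with fewer than 200 genes were left out, 15777 cells remained, between 3472 and 4396 per library. The libraries held 36861583 to 45075309 UMIs, and the median cell held 7957.5 UMIs in vehicle, 6568.5 with panobinostat, 10020.5 with givinostat and 8370.0 with ruxolitinib. The lowest UMI count of a kept cell also differed, from 2920 with panobinostat to 5272 with givinostat. In all, 39 kept cells carried a barcode found in 2 libraries. A doublet caller marked 0.0824% of cells, which is too few for it to have worked, so doublets were not removed. Cell types were named from marker genes after clustering without the ribosomal protein genes, and 11 classes with at least 40 cells in every library were used for counts over classes.

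The 79 members together held 15243444 UMIs, 9.21% of all UMIs of the kept cells. Their share was 9.12% in vehicle, 8.13% with panobinostat, 10.6% with givinostat and 8.78% with ruxolitinib. These shares over all cells move with the mix of cell types in each library. A total of 68 of the 200 genes with the highest counts were ribosomal protein genes. The levels were even: 77 members lay above 100 CPM (UMIs per 1000000 UMIs of the same cells), with a median of 1189 CPM over all 79, and the 6 highest held only 13.0% of the members' UMIs. CPM of 3′ UMIs is not corrected for transcript length, since a molecule is counted once at its 3′ end.

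The 6 highest members over all cells were Rpl13 (2265 CPM) and Rps24 (2176 CPM), the zinc-binding small-subunit protein Rps29 (1956 CPM), Rplp1 (1889 CPM), an acidic protein of the stalk that recruits elongation factors, Rpl23 (1888 CPM) and Rpl19 (1838 CPM). Across libraries Rpl13 measured 2276 CPM in vehicle, 2047 with panobinostat, 2445 with givinostat and 2253 with ruxolitinib. Rps29 spread more widely, from 1359 CPM with ruxolitinib to 2858 CPM with givinostat. At the lower end of the members above 100 CPM stood Rpl27 at 153 CPM and Rpl13a at 165 CPM, and both have close copies, treated further on.

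Among the 11 classes, the share of UMIs that came from ribosomal protein genes was lowest in tubule cells and highest in lymphocytes in every library. In proximal tubule-like cells it was 4.57% in vehicle, 4.73% with panobinostat, 4.21% with givinostat and 4.30% with ruxolitinib. Distal convoluted tubule-like cells had a similar share (4.25 to 4.67% over the 4 libraries), and loop of Henle-like cells a higher one (6.04 to 6.61%). Endothelial-like cells followed at 8.21 to 9.39%. Macrophage-like cells held 12.2 to 13.9%, monocyte-like cells 14.3 to 15.0%, dendritic-like cells 16.5 to 18.6% and NK-like cells 19.4 to 20.7%. T-like cells held the most among the named classes: 24.5% in vehicle, 24.2% with panobinostat, 22.1% with givinostat and 22.2% with ruxolitinib. The ranges of the 4 libraries did not overlap between T-like and NK-like cells, nor between endothelial-like and macrophage-like cells, while the principal or connecting tubule-like (5.30 to 6.01%) and intercalated-like cells (5.23 to 6.08%) could not be ordered.

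**Figure D1:**
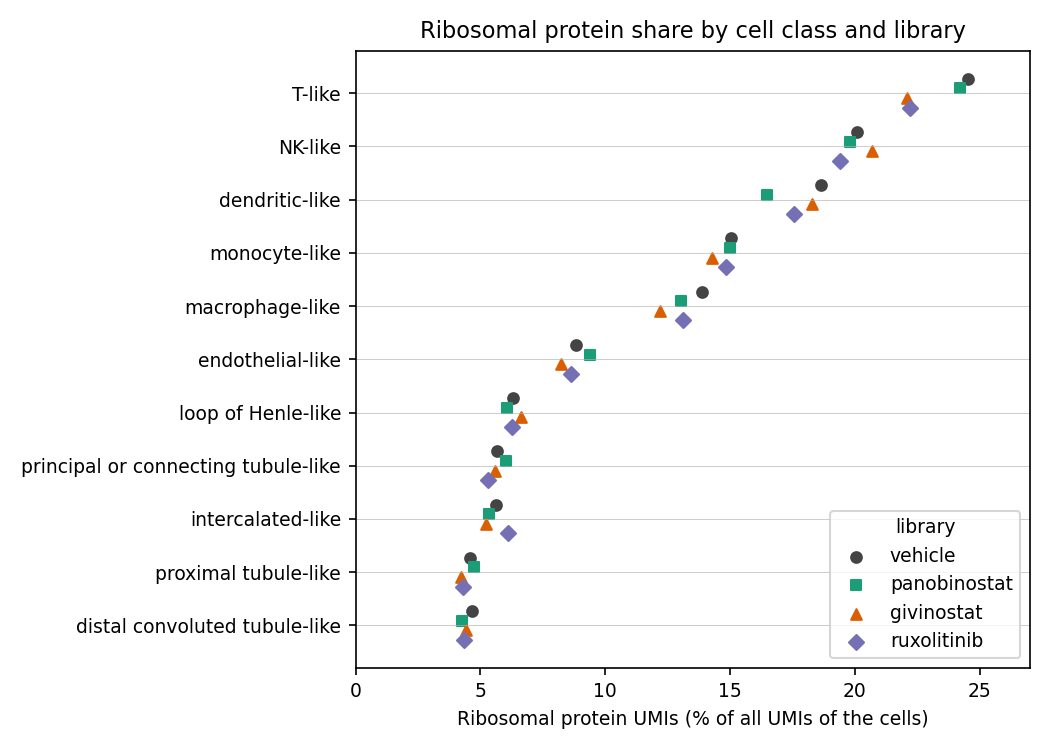
Percent of UMIs from the 79 ribosomal protein genes in each marker-named cell class (vertical order) and library (point colour). Every library runs from under 5% in proximal tubule-like cells to over 22% in T-like cells.

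Outside the 11 classes, erythroid-like cells, which fill with globin mRNA, had 4.98% in vehicle (6 cells), 2.57% with panobinostat (103 cells), 2.83% with givinostat (76 cells) and 1.79% with ruxolitinib (143 cells), below proximal tubule-like cells in the 3 drug libraries. An unnamed cluster had a higher share than T-like cells: 37.9% in vehicle, 36.2% with panobinostat, 36.3% with givinostat and 34.4% with ruxolitinib. Its leading genes were Ccr7, Lef1, Satb1 and Tcf7, the chemokine receptor of lymph node homing and transcription factors of resting T cells. It was left unnamed because Ccr7 also stood on the dendritic marker list. Among proximal tubule-like clusters the share ran from 3.31% in vehicle in the cluster led by Gm45792 and Slc22a30 to 6.64% in the cluster led by Spp2, Car3 and Gatm. Panobinostat (3.04 and 7.37%), givinostat (2.86 and 6.58%) and ruxolitinib (2.87 and 7.17%) libraries showed the same pair of clusters in the same order.

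Almost every member followed the share. Of the 77 members above 100 CPM, 76 were more than 2-fold higher in T-like than in proximal tubule-like cells in every library. The median ratio of CPM was 5.01 in vehicle, 4.73 with panobinostat, 5.06 with givinostat and 4.94 with ruxolitinib. The stalk-base protein gene Rpl12 had ratios of 11.2 to 12.7. Rps2, at the mRNA entry of the small subunit, had 2.03 to 2.47.

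Rps27l was the exception. It encodes a close relative of Rps27 and is a known target of p53. On GRCm38 the gene lies at chr9:66946086-66949516 on the plus strand, with a coding sequence of 252 bases. In proximal tubule-like cells it measured 474 CPM in vehicle, 429 with panobinostat, 502 with givinostat and 480 with ruxolitinib. In T-like cells it measured 99.1, 113, 118 and 131 CPM in the same order of libraries. The T-like level was thus 0.209 to 0.274 of the proximal tubule-like level, in the direction opposite to the other 76. Macrophage-like plus monocyte-like cells lay between, at 266, 265, 228 and 271 CPM. T-like cells also carried UMIs of all 12 proximal tubule markers, summing to 2317 CPM in vehicle, 3136 with panobinostat, 2302 with givinostat and 1409 with ruxolitinib, against 47122 to 64441 CPM in proximal tubule-like cells. The part of these molecules in the T-like level of Rps27l was not tested.

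Relative to the other members, a few genes had a cell-type bias that recurred in each library. Rps27l made up 0.908 to 1.19% of ribosomal protein UMIs in proximal tubule-like cells and 0.040 to 0.059% in T-like cells, a ratio of 21.3 between the library means of the highest and lowest class. Rps2 was highest in proximal tubule-like cells (2.43 to 2.88%) and lowest in monocyte-like cells (0.987 to 1.12%). Rpl12 was highest in T-like cells (1.81 to 2.12%) and lowest in monocyte-like cells (0.801 to 0.907%). Rplp1 was highest in intercalated-like cells (2.87 to 3.27%) and lowest in monocyte-like cells (1.23 to 1.54%). For each of these 4 genes the 4 values of the highest class lay above the 4 values of the lowest. Over the 77 members the median ratio between the highest and lowest class was 1.46, and 68 stayed below 2.

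**Figure D2:**
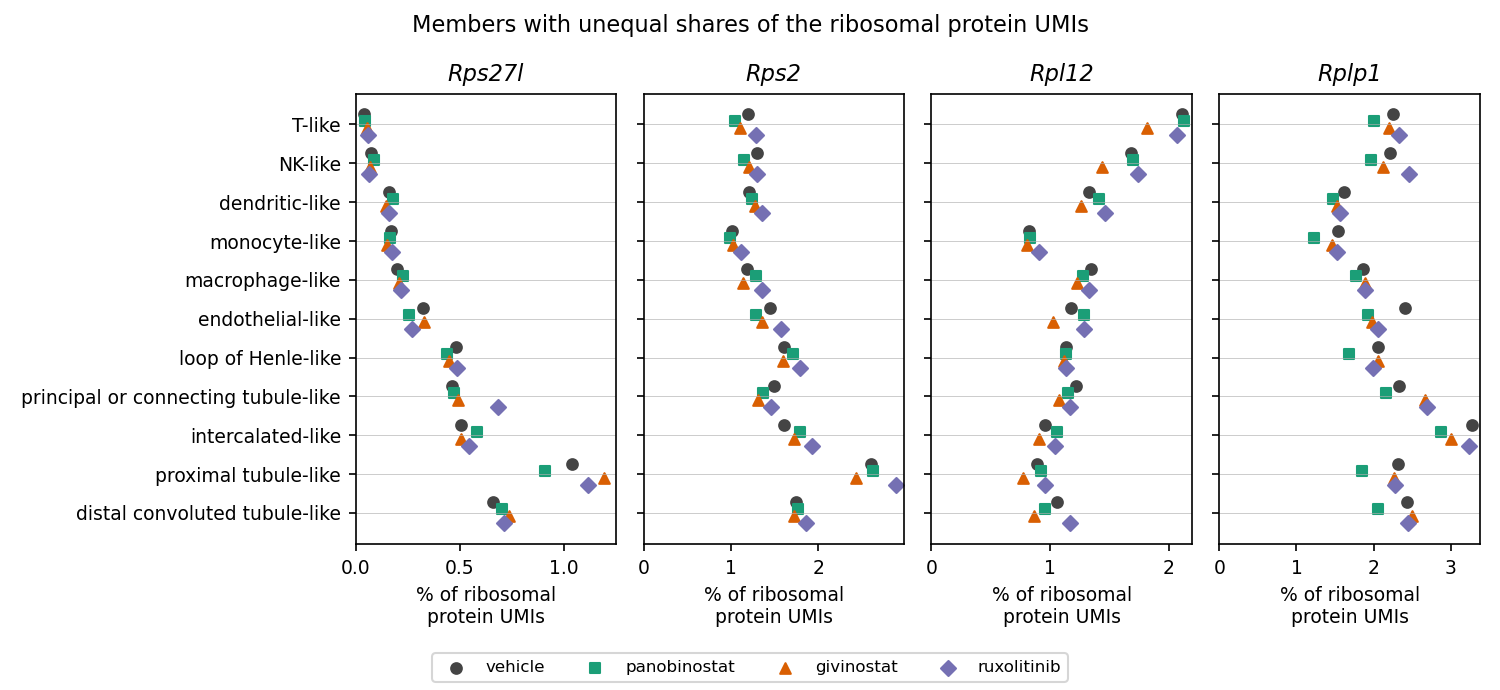
Share of ribosomal protein UMIs (percent, 1 panel per gene) held by Rps27l, Rps2, Rpl12 and Rplp1 in each cell class (vertical order), 1 point per library. Rps27l spans from about 0.05% in T-like cells to about 1.1% in proximal tubule-like cells, while the library means of the other 3 vary by less than 3-fold.

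Rpl3l and Rpl39l stayed below 10 CPM over all cells. Rpl3l is the muscle relative of Rpl3, and Rpl39l a relative of Rpl39 known from male germ cells. Rpl3l reached 3.30 CPM over all cells (546 UMIs). Its highest level was in the monocyte-like cluster led by Ear2, Gngt2 and Adgre4, with 34.2 CPM in vehicle, 30.4 with panobinostat, 38.6 with givinostat and 24.6 with ruxolitinib, from 17, 18, 50 and 18 UMIs. In the other monocyte-like cluster, led by Chil3 and Fn1, it measured 9.60, 6.57, 4.01 and 0.782 CPM in the same order. These levels came from 6, 7, 9 and 1 UMIs. Rpl3l was thus higher in the Ear2-led than in the Chil3-led cluster in each library, on few UMIs. Macrophage-like cells held 0, 1, 1 and 2 UMIs. Proximal tubule-like cells had 3.13 to 4.52 CPM. Rpl39l (105 UMIs in all) had 0 UMIs in proximal tubule-like cells of all 4 libraries, which allows at most 0.130 to 0.162 CPM. In T-like cells it had 20 UMIs in vehicle, 3 with panobinostat, 28 with givinostat and 5 with ruxolitinib. Of the 20 in vehicle, 14 came from 3 cells of the cluster led by Il17a and Trdc.

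Against vehicle, the share of ribosomal protein UMIs differed little in proximal tubule-like cells. The ratio to vehicle was 1.033 with panobinostat (interval 1.030 to 1.036), 0.920 with givinostat (0.917 to 0.923) and 0.941 with ruxolitinib (0.938 to 0.944). All 3 ratios share the vehicle library, and each is smaller than the spread between proximal tubule-like clusters. The largest such cluster differed by library: the Pdk4- and Osgin1-led cluster in vehicle, the Kap- and Slc7a13-led cluster with panobinostat and givinostat, and the Slc5a12- and Slc6a19-led cluster with ruxolitinib. Within clusters with at least 50 cells in both libraries the ratio ran from 0.917 to 1.11 with panobinostat, from 0.751 to 1.02 with givinostat and from 0.832 to 1.08 with ruxolitinib. When clusters were weighted as in vehicle, the panobinostat ratio turned to 0.984. Scaling by trimmed means moved the median of all genes by -0.12 on the log2 scale in the ruxolitinib comparison and lowered that ratio to 0.864. The 7 erythroid markers, each with UMIs in every library, summed to 113 CPM in proximal tubule-like cells of vehicle, 152 with panobinostat, 354 with givinostat and 534 with ruxolitinib, and their part in the ratios was not tested.

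In T-like cells the ratio was 0.986 with panobinostat (0.982 to 0.990), 0.900 with givinostat (0.898 to 0.903) and 0.904 with ruxolitinib (0.901 to 0.907). The direction with panobinostat depended on how T-like cells were delimited: it was 1.02 when clustering at other resolutions took in the Ccr7-led cluster. For macrophage-like and monocyte-like cells combined, the ratios were 0.987, 0.940 and 0.974, and in dendritic-like cells 0.885, 0.980 and 0.942, in the order panobinostat, givinostat, ruxolitinib. Median depth also differed between the libraries. T-like cells held 4692.5 UMIs in vehicle, 4148 with panobinostat, 7385 with givinostat and 5259 with ruxolitinib. With every cell thinned to 2500 UMIs the median share in T-like cells was 24.3, 23.8, 21.7 and 21.8%, close to the unthinned 24.3, 23.7, 21.8 and 21.4%.

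Single members were then compared with vehicle, on CPM summed over the cells of a class, for genes that reached 100 CPM in vehicle or in the drug library. A gene was counted as higher or lower past 1.2-fold on the log2 scale with 5 CPM added to both values. In the proximal tubule-like class, panobinostat had 0 members higher and 1 lower of 76, against 5.87% of all genes higher and 6.87% lower. The lower member was Rplp1, with 1058 CPM in vehicle, 873 with panobinostat, 955 with givinostat and 981 with ruxolitinib. Its ratio was 0.825 (0.809 to 0.841). Rps27l (0.905) and Rpl29 (0.933) were next lowest, and Rps27 (1.09), Rpl35a (1.10) and Rpl38 (1.12) were highest. Rplp1 was the only one of 75 members with at least 100 CPM throughout that was lower with panobinostat in all 11 classes, where 0.559% of all genes were lower and 2.23% higher in every class. Its log2 ratio there ran from -0.38 to -0.02. With trimmed-mean scaling Rplp1 no longer passed 1.2-fold in proximal tubule-like cells.

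With givinostat, 5 members were higher and 14 lower of 76 in proximal tubule-like cells, against 12.3% of all genes higher and 10.6% lower. The median log2 ratio of the members was -0.16 and that of all genes was -0.0002. Rpl38, a large-subunit protein known for its part in translating Hox mRNAs, measured 423 CPM in vehicle, 473 with panobinostat, 545 with givinostat and 333 with ruxolitinib. Its givinostat ratio was 1.29 (1.25 to 1.33), followed by Rps27 at 1.26 and Rps21 at 1.22. At the other end, Rpl28 measured 888, 957, 695 and 751 CPM in the same order of libraries, a ratio of 0.782 (0.765 to 0.800). Rpl18 (0.779) and Rps14 (0.785), the small-subunit gene lost in a form of human marrow failure, were alongside it. The members thus spread to both sides of a median below that of all genes. With trimmed-mean scaling the count became 1 higher and 35 lower.

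With ruxolitinib, 0 members were higher and 5 lower of 76 in proximal tubule-like cells, against 12.5% of all genes higher and 7.03% lower. Rps29 measured 834 CPM in vehicle, 844 with panobinostat, 1006 with givinostat and 576 with ruxolitinib. Its ratio to vehicle was 0.691 (0.675 to 0.707), the lowest of all members in this class. Rps28 measured 289, 315, 322 and 215 CPM in the same order, a ratio of 0.743. Rpl38 followed at 0.787. The highest were Rps2 (1.04), Rpl23a (1.05) and Rpl10 (1.12), a protein needed for the last steps of large-subunit assembly. Rpl38 was thus among the 3 highest members with givinostat and among the 3 lowest with ruxolitinib. With trimmed-mean scaling 0 were higher and 20 lower.

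The same comparison was made in T-like cells. With panobinostat 1 member was higher and 1 lower of 77, against 9.38% and 10.2% of all genes. The higher one was Rps28, with 1186 CPM in vehicle, 1447 with panobinostat, 1533 with givinostat and 928 with ruxolitinib. The lower one was Rpl10 (2273, 1847, 2012 and 2172 CPM). With givinostat 7 were higher and 22 lower, against 17.2% and 7.37% of all genes. Rpl38 measured 2096, 2234, 2759 and 1535 CPM, a givinostat ratio of 1.32, beside Rps28 (1.29) and Rps27 (1.28). Rpl12 (0.771) and Rpl14 (0.779) were among the 3 lowest. With ruxolitinib 1 was higher and 9 lower, against 13.3% and 6.92% of all genes. Rps29 measured 4687, 4734, 5389 and 3248 CPM, a ruxolitinib ratio of 0.693, with Rpl35 at 0.718 and Rpl38 at 0.733. The higher one was Rps27l at 1.32, on 336 and 344 UMIs, and Rpl27 (1.14) and Rpl13a (1.09) came next. The summed proximal tubule and erythroid markers in T-like cells differed between libraries too. The 7 erythroid markers summed to 1169 CPM in vehicle, 204 with panobinostat, 929 with givinostat and 998 with ruxolitinib, and 6 of them had UMIs in every library. Their part in the ratios was not tested.

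Macrophage-like and monocyte-like cells were also summed, and Rplp1, Rpl38 and Rps29 again stood at the extremes. With panobinostat 0 members were higher and 2 lower of 77, against 14.0% and 11.0% of all genes; the lower ones were Rpl13a (0.766) and Rplp1 (2437 CPM in vehicle, 1993 with panobinostat, 2148 with givinostat and 2356 with ruxolitinib). With givinostat 8 were higher and 9 lower, against 22.1% and 11.5% of all genes. Rpl27 (1.41), Rpl38 (1.36) and Rps21 (1.32) were highest, and Rps10 (0.787), Rps4x (0.789) and Rps3 (0.792) lowest. With ruxolitinib 1 was higher and 8 lower, against 12.2% and 8.07% of all genes. Rps29 (3937, 3763, 4708 and 2803 CPM) had the lowest ratio at 0.712, then Rpl38 (0.748) and Rpl35 (0.774). Rpl27 was highest at 1.27, followed by Rpl23a and Rpl10, both at 1.14. The 12 proximal tubule markers summed to 7031, 11704, 6563 and 5459 CPM in these cells, in the order vehicle, panobinostat, givinostat, ruxolitinib. The 8 macrophage markers summed to 15073, 7405, 9248 and 10491 CPM and the 7 erythroid markers to 1759, 2265, 2202 and 3525 CPM, all with UMIs in every library. The mix of both classes differed as well, with 125 macrophage-like and 149 monocyte-like cells in vehicle, 127 and 259 with panobinostat, 149 and 301 with givinostat and 164 and 232 with ruxolitinib. The part of these differences in the ratios was not tested.

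Rpl38, Rps27, Rps21, Rps28 and Rps29, named above at the extremes of the givinostat and ruxolitinib comparisons, have short mRNAs, and the members were therefore split by length. The split was made after the values had been seen, so it is a description. A group of 11 members has a coding sequence of at most 300 bases: Rpl41 (75 bases), Rpl39 and Rpl39l (153 each), Rps29 (168), Rps28 (207), Rpl38 (210), Rps21 (249), Rps27 and Rps27l (252 each), Rpl37a (276) and Rpl37 (291). Rpl36 (315) and Rpl36a (318) lie just outside. Rpl39l was too low for the comparison, which left 10. The 10 were all above vehicle with givinostat in proximal tubule-like cells, with a median log2 ratio of 0.27 against -0.19 for the 66 longer members. Of all 1429 genes tested there, 714 were above vehicle. With ruxolitinib 9 of the 10 were below vehicle, with a median of -0.24 against -0.06 for the longer members. In the same cells the 91 other genes with a coding sequence of at most 300 bases had a median of -0.08 with ruxolitinib. The 1248 other genes with a longer one had a median of 0.03. The share of all genes below vehicle with ruxolitinib is not given here. In T-like cells the medians of the short members were 0.29 with givinostat and -0.30 with ruxolitinib. Other genes with a coding sequence of at most 300 bases did not show this with givinostat: the 91 tested in proximal tubule-like cells had a median of -0.08, and over the 11 classes their medians ran from -0.30 to 0.08, against 0.24 to 0.42 for the short members. With ruxolitinib the medians of these other genes ran from -0.19 to 0.02, against -0.32 to -0.07 for the short members.

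**Figure D3:**
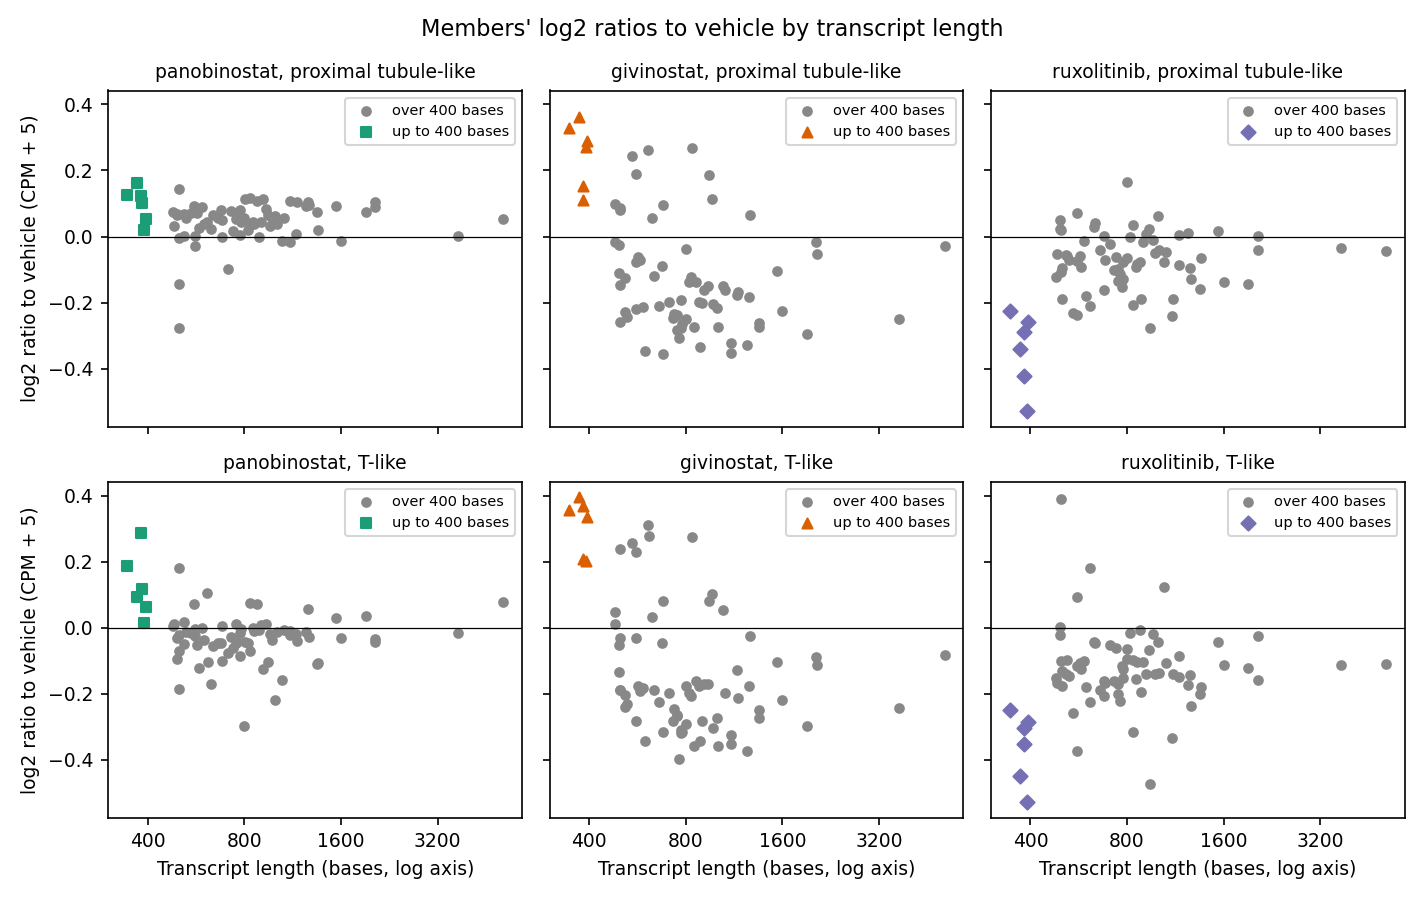
Log2 ratio to vehicle of each ribosomal protein gene against the length of its annotated transcript (bases, log axis) in proximal tubule-like and T-like cells, 1 panel per drug and class, with the 6 transcripts of at most 400 bases in colour. Those 6 lie above 0 with givinostat and below 0 with ruxolitinib, and with panobinostat they lie above 0 by less.

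The short members' share of all ribosomal protein UMIs separated the libraries in every class used. It was 10.0 to 11.8% in vehicle over the 11 classes, 10.4 to 12.2% with panobinostat, 13.1 to 15.3% with givinostat and 8.36 to 11.1% with ruxolitinib. Givinostat was highest in 11 of 11 classes and ruxolitinib lowest in 11 of 11. Panobinostat was above vehicle in 11 of 11 classes by a smaller margin, for example 10.8 against 10.0% in T-like cells, and the ranges over classes of vehicle, panobinostat and ruxolitinib overlapped. With givinostat set directly against ruxolitinib, without the vehicle library, 9 or 10 of the 10 short members were higher with givinostat in each class. Their medians ran from 0.37 to 0.73 on the log2 scale, against -0.33 to -0.01 for the longer members. The group was formed after members had stood at the givinostat and ruxolitinib extremes in these same libraries, so this contrast is no separate support. The share of all genes higher with givinostat than with ruxolitinib is not given here.

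**Figure D4:**
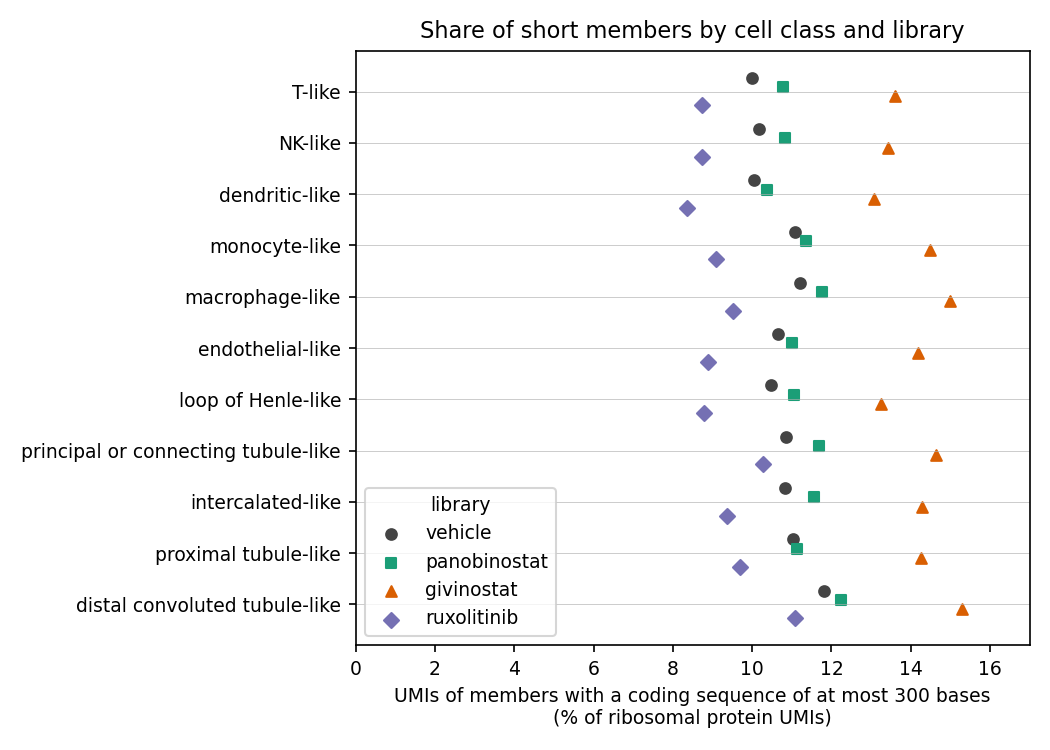
Share of ribosomal protein UMIs (percent) from the members with a coding sequence of at most 300 bases, by cell class and library. In each of the 11 classes the givinostat point is highest and the ruxolitinib point lowest.

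Whole transcript length picked out 5 of these genes and Rpl36. A group of 6 members has an annotated transcript of at most 400 bases: Rps27 (345), Rpl38 (371), Rps28 (382), Rpl36 (383), Rps29 (390) and Rps21 (394). Over these members and the 11 classes, 66 of 66 values were higher than vehicle with givinostat and 65 of 66 lower with ruxolitinib, the exception being Rps21. With panobinostat 43 were higher and 23 lower. With givinostat the value of Rpl36 in endothelial-like cells was nearly a tie, at 725 CPM in both libraries (log2 ratio 0.0001). Of all genes, 6.38% were higher in every class with givinostat and 5.01% lower in every class with ruxolitinib. The 66 values come from 6 genes read in the same libraries, so they are not repeats. Of the 6 genes, 5 had already been named above at these extremes. The directions with givinostat and ruxolitinib were the same under total, trimmed-mean and median-of-ratios scaling in proximal tubule-like, T-like and macrophage-like plus monocyte-like cells. Rps29, at chr12:69157722-69159186 on the minus strand, had the lowest median over classes of the 6 with ruxolitinib (-0.52), and Rpl38, at chr11:114668524-114672331 on the plus strand, the highest with givinostat (0.43). Another 7 nuclear genes of that transcript length reached 100 CPM in at least 1 class, giving 34 values, of which 26 were higher with givinostat and 25 lower with ruxolitinib. The part of transcript length in this order was not tested.

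Over all members above 100 CPM in every class (75), 12 were higher with givinostat in each of the 11 classes (16.0%, against 6.38% of all genes) and 16 were lower (21.3%, against 11.0%). The 12 were Rpl37a, Rpl35, Rps21, Rpl39, Rps27, Rplp2, Rpl41, Rpl38, Rps29, Rpl37, Rps28 and Rpl36. In endothelial-like cells Rpl36 was higher by only 0.0001 on the log2 scale. The 16 included Rplp0, the scaffold of the stalk, with Rpl28, Rps14, Rpl18 and Rpl13. With ruxolitinib 1 was higher in each class, Rps12 (1.33%, against 2.60% of all genes), and 12 were lower (16.0%, against 5.01%), among them Rps29, Rpl38, Rpl36, Rps28, Rpl35 and Rpl28. Rpl28, at chr7:4792874-4795066 on the plus strand, was lower than vehicle with both of these drugs in all 11 classes, with medians of -0.32 and -0.27. All these values share the vehicle library.

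Other genes of the translation machinery were read from lists written by name, and their counts stand against the shares of all genes in proximal tubule-like cells given above. Of 7 ribosomal proteins whose symbols fall outside the rule, 4 were high enough in proximal tubule-like cells, led by Fau (865 CPM in vehicle, 913 with panobinostat, 731 with givinostat and 780 with ruxolitinib), Rps3a1 and Rpl22l1. They had 0 higher and 0 lower with panobinostat and with givinostat, and 1 higher with ruxolitinib, with medians of 0.07, -0.07 and -0.02. Among 19 translation elongation factors and other TOP mRNAs, led by Tpt1, Eef1a1 and Rack1, none of those tested passed 1.2-fold with givinostat in proximal tubule-like cells (median -0.10). Tpt1, a TOP mRNA, measured 3559, 4504, 3418 and 3794 CPM there and was the 1 that was higher with panobinostat. Of 25 initiation factors, led by Eif1, Eif4g2 and Eif5, 14 were tested, and 1 was higher and 2 lower with givinostat (median -0.03). Of 32 ribosome biogenesis genes, led by Ncl, Polr1d and Nop10, only 4 reached 100 CPM in proximal tubule-like cells, and of 20 regulators, led by Atf4, Rheb and Larp4, only 2 or 3.

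The mitochondrial ribosome is built by a separate family of 78 listed genes led by Mrpl12, Mrpl42 and Mrps21. It had the opposite order between proximal tubule-like and T-like cells. Its share of UMIs in proximal tubule-like cells was 0.640% in vehicle, 0.680% with panobinostat, 0.572% with givinostat and 0.612% with ruxolitinib. In T-like cells it was 0.414, 0.412, 0.393 and 0.415%, lower in each library. Over the 11 classes the order was not simply reversed. In vehicle, loop of Henle-like cells held the most (0.718%) and macrophage-like cells the least (0.375%). With givinostat 0 were higher and 7 lower of 23 tested in proximal tubule-like cells, against 12.3% and 10.6% of all genes, with a median of -0.20. With panobinostat 0 passed in either direction of 25 (median 0.09), against 5.87% and 6.87% of all genes. With ruxolitinib 0 were higher and 1 lower of 23 (median -0.09), against 12.5% and 7.03% of all genes.

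Several members have near-identical copies elsewhere in the genome, and a read that fits both cannot be placed. A search of the GENCODE transcripts found 20 copies on the sense strand with at least 95% identity, of which 10 reached 10 CPM in at least 1 library. The windows below show, for Rplp1 and its copy Gm10073, a base that tells them apart, in capitals, on GRCm38 with GENCODE vM21. Positions are counted from 1 at the 5′ end of the member's transcript, and the change is A167G.
Rplp1, chr9:61914362-61914391 (-): ccctcatcctgcacgAcgacgaggtgacgg
Gm10073, chr8:106573284-106573313 (-): ccctcatcctgcacgGcgacgaggtgacgg

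The share of a pair's UMIs assigned to the copy differed between libraries for most pairs. Gm2000, a copy of Rpl35, took 2.73% of the pair's UMIs in vehicle, 3.01% with panobinostat, 7.13% with givinostat and 8.58% with ruxolitinib, and the same order held in proximal tubule-like (2.69, 2.98, 7.10 and 8.63%) and T-like cells (2.39, 3.15, 7.01 and 8.39%). Gm10076, a copy of Rpl41, took 11.5, 11.0, 6.68 and 4.84%, the reverse order. Gm10073 took 1.44, 1.52, 1.93 and 1.49% of its pair with Rplp1. Of the 10 copies, 7 had lower shares in both vehicle and panobinostat than in givinostat and ruxolitinib, and 2 had higher ones.

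**Figure D5:**
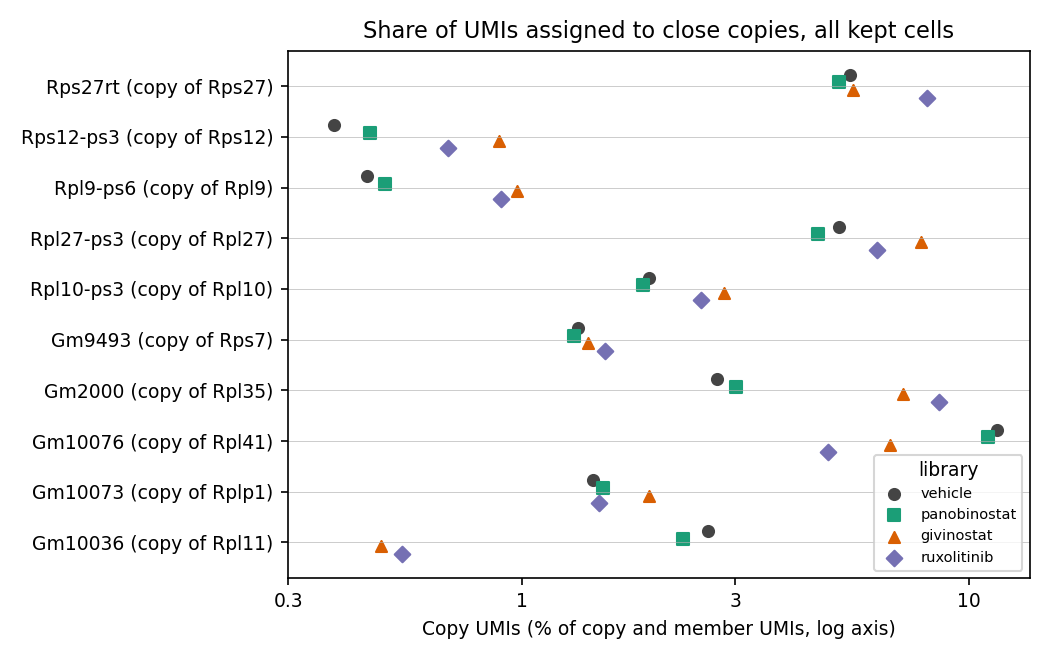
Percent of the UMIs of a member and its copy that were assigned to the copy, over all kept cells, for the 10 copies with at least 10 CPM in at least 1 library. Gm2000 is about 3% in vehicle and panobinostat and over 7% in the other 2 libraries, and Gm10076 runs the other way.

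Among members with a copy named -ps at 10 CPM or more, Rpl27-ps3 took 5.13% of its pair in vehicle, 4.61% with panobinostat, 7.83% with givinostat and 6.22% with ruxolitinib. Rpl10-ps3 took 1.93, 1.87, 2.83 and 2.52%, Rpl9-ps6 0.45, 0.49, 0.98 and 0.90%, and Rps12-ps3 0.38, 0.46, 0.89 and 0.69%. Rpl13a-ps1, below 10 CPM in each library, took 0.39, 0.34, 2.61 and 1.81% of its pair with Rpl13a. Rps27rt, the copy of Rps27, took 5.14 to 8.06% of its pair. The levels of Rpl35, Rpl27, Rpl41 and Rps27 are uncertain for this reason. The shares count placed UMIs only, so they do not bound what was lost with reads that fit both genes. Adding the copies and the ribosomal proteins outside the rule to the members kept all 9 of the share ratios and counts that were recomputed within the range set for an unchanged value. That addition cannot restore reads that were not placed.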

How the data were processed

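The authors deposited 1 matrix of UMI counts, genes by cells, made with Cell Ranger 3.0.1 on mm10, per the submitters' processing notes. The members and lists were chosen with earlier results of these data known. Cells were kept from 200 genes and 500 UMIs upwards if no more than 50% of UMIs were mitochondrial. Cells were clustered with scanpy 1.11.5 on 2000 variable genes without ribosomal protein genes, 30 components and Leiden resolution 1.0, and clusters were called "X-like" from markers on a written list. UMIs were summed per library and class and scaled to CPM, and ratios used 5 CPM added to both values. Shares and ratios have exact 95% binomial intervals. Trimmed-mean scaling came from edgeR 4.0.16 and median-of-ratios scaling from DESeq2 1.42.0, for scaling alone. Annotation was GENCODE vM21, and copies were found with BLAST 2.17.0. The ratio code was checked on simulated counts. The text names the 6 highest members, the 5 with the largest class ratio, the 3 highest and 3 lowest ratios per drug in 3 classes, members below 10 CPM, members with an expressed copy, and the 3 highest genes of each other list. Some results that this rule names are not reported here. Alternatives were other resolutions, filters, depths, scalings, pseudocounts and thresholds.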

Additional observations from a re-analysis of the deposited data

How the results depend on the processing

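With 1 library per group there was no test, and no paired analysis was possible because no group had a second library. The settings without short members and without shared barcodes were chosen after the values had been seen. Ratios are in the order panobinostat, givinostat, ruxolitinib. In proximal tubule-like cells they were 1.05, 0.865 and 0.864 with trimmed-mean scaling (counts past 1.2-fold 0, 36 and 20), 1.04, 0.864 and 0.870 with DESeq2 size factors (givinostat 36, ruxolitinib 19), 1.03, 0.931 and 0.945 above 5272 UMIs per cell, and 1.02, 0.905 and 0.936 without mitochondrial UMIs. The stricter cell filter gave 1.07 with panobinostat and 0.979 with ruxolitinib (counts 0 and 3). Weighting clusters as in vehicle gave 0.984, a reversal, and 0.934 with givinostat. Without short members givinostat was 0.887 and ruxolitinib 0.955 (count 2). A 1.5-fold threshold left 0, 0 and 0 members, and a minimum of 500 CPM left 1 with ruxolitinib. In T-like cells the ratios were 0.977, 0.844 and 0.851 with trimmed-mean scaling, 0.980, 0.846 and 0.853 with DESeq2 size factors, and 0.978, 0.864 and 0.917 without short members. The panobinostat ratio reversed to 1.02 at Leiden resolutions 0.5 and 1.5 (givinostat 0.915 and 0.908, ruxolitinib 0.946 and 0.937), to 1.01 with the members among the clustering genes (0.913 and 0.947), and to 1.00 with the stricter filter (givinostat 0.905). It was 0.969 with weighted clusters and 0.992 without mitochondrial UMIs (givinostat 0.895). Above 5272 UMIs givinostat was 0.897 and ruxolitinib 0.913. Where no construction of the alternative shows it, the cause was not tested. Thinning to 2500 UMIs, other pseudocounts, no filter on low values, added copies and the removal of shared barcodes left every recomputed value within the range set for no change. Counts of few UMIs, as for Rpl3l and Rpl39l, limit what can be said of those genes.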

Other observations

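Atp5k, which encodes a subunit of the mitochondrial ATP synthase and has an annotated transcript of 371 bases, ran like the short ribosomal protein genes. In proximal tubule-like cells it measured 426 CPM in vehicle, 477 with panobinostat, 521 with givinostat and 321 with ruxolitinib. Over the 11 classes it was higher than vehicle with givinostat in 10 and lower with ruxolitinib in 11. Usmg5, another ATP synthase subunit gene of 362 bases, was higher with givinostat in 10 of 11 classes but higher in 6 and lower in 5 with ruxolitinib. These genes were chosen after their values were seen.

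Genes of 600 to 800 transcript bases had a median log2 ratio with givinostat of -0.21 in proximal tubule-like cells both among members and among other genes. Above 1200 bases the medians were -0.20 among members and 0.06 among other genes.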
